A study of Homo sapiens with 9 samples.

Results

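The genes of the TGF-beta ligands, their receptors and the proteins that hold the ligands latent were followed in U2OS cells after knockdown of NFKB2 or RELB. The 9 genes, taken by symbol from every count table, were TGFB1, TGFB2, TGFB3, INHBA, LTBP1, LTBP2, TGFBR1, TGFBR2 and TGFBR3. They are 9 of 44608 entries, and all 9 were among the 14815 genes that passed the filter on low counts. U2OS is a human osteosarcoma line. The siNFKB2 libraries came from cells given siRNA against NFKB2, the siRELB libraries from cells given siRNA against RELB, and the siNS libraries from controls transfected with a non-silencing siRNA, with 3 libraries in each group. All of these cells received siRNA at 75 nM with Lipofectamine RNAiMAX, and RNA was taken 48 h later, so no group is without transfection. The sources used here do not give the siRNA sequences or say whether each was a pool. The labels number the replicates but name no separate cultures, so each p-value reflects the spread among the sequenced libraries, part of which may be technical.

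TGF-beta ligands are secreted bound to their own propeptides, and latent TGF-beta binding proteins tether that inactive complex to the extracellular matrix until integrins, proteases or thrombospondin release the ligand. The released ligand brings together a type II and a type I receptor kinase, which phosphorylate SMAD proteins that then act on genes of matrix, cytoskeleton and cell cycle. Bone matrix is a large store of latent TGF-beta, and cells of the bone lineage both make it and respond to it. NFKB2 and RELB encode subunits that pair in the non-canonical NF-kB pathway.

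Total counts were 15011789 to 19279572 per library. NFKB2 stood at 4.87%, 21.1% and 44.8% of its siNS mean in siNFKB2 replicates 1, 2 and 3 (log2 fold change -2.09 ± 0.564 SE, adjusted p = 0.021), and RELB at 9.79%, 17.1% and 19.7% in the siRELB replicates (-2.69 ± 0.369, adjusted p = 0.00881). Within each group the library numbered 1 was the least like the other libraries, and counts of calls made without these 3 libraries stand beside the gene lists whose counts they change. Of 8 bone lineage markers, SP7, BGLAP and IBSP had at most 1 count in any library, and the list summed to 1778 to 2197 CPM (counts scaled to library size) in siNFKB2, 2102 to 2681 in siRELB and 1877 to 2701 in siNS. In siNFKB2 against siNS, ALPL and SPP1 were higher and COL1A1 and RUNX2 lower, while no bone marker was called in siRELB. Of 6 epithelial markers, CDH1 was higher in siNFKB2 and in siRELB, KRT8 and CLDN4 were lower in siNFKB2, KRT19 had at most 1 count, and the sum was 578.2 to 683.1 CPM in siNFKB2, 641.4 to 728.2 in siRELB and 636.4 to 940.8 in siNS. Of 6 blood markers, CD3E and LYZ had no count in any library, only HBB was tested and it was lower in siNFKB2, and the sum was 2.15 to 4.78 CPM in siNFKB2, 4.92 to 7.33 in siRELB and 5.07 to 6.99 in siNS. The part of these marker differences in the results below was not tested, and in bulk RNA fewer cells of a type and less RNA per cell cannot be told apart.

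Promoters of 4 of the genes called in siNFKB2 against siNS are shown first, a pair that was lower (TGFB2 and LTBP1) and a pair that was higher (TGFB1 and INHBA), since the knocked-down genes encode DNA-binding factors. Each run is the 250 bases before the RefSeq start (GRCh38.p14), 5′ to 3′ on the gene's strand. Capitals mark matches, on either strand, to the consensus of NF-kB or to a motif of another factor. The AP-1 motif was TGANTCA and allows any base at N. The CRE motif searched was TGACGTCA in full. The TATA box was read as TATAAA with no mismatch. The SMAD element was read as CAGAC with no mismatch. The letters of these motifs do not overlap in the runs shown.
TGFB2 promoter, chr1:218345086-218345335, plus strand: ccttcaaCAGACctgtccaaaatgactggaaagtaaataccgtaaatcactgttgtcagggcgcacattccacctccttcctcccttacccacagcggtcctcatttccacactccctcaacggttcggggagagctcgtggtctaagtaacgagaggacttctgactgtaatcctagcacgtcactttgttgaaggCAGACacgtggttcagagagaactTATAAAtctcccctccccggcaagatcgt
LTBP1 promoter, chr2:32946703-32946952, plus strand: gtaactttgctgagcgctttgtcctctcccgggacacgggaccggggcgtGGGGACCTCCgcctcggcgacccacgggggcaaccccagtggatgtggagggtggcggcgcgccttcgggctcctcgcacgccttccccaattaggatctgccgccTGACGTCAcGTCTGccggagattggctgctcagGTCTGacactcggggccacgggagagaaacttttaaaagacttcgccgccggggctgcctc
TGFB1 promoter, chr19:41353923-41354172, minus strand: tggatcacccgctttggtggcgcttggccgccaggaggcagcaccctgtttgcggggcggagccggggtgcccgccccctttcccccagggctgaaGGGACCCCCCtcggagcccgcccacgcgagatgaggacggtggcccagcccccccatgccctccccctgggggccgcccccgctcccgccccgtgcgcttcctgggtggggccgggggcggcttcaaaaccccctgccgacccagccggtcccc
INHBA promoter, chr7:41703091-41703340, minus strand: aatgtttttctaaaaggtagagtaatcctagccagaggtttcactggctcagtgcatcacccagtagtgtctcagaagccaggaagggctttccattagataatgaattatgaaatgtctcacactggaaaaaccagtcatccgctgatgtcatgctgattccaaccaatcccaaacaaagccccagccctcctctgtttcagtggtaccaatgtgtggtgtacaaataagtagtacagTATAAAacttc
RefSeq lists 20 such windows for the 9 genes, of which 5 hold the NF-kB consensus, in TGFB1, LTBP1 and TGFBR1. Most of these 5 belong to TGFBR1, which has more windows than any other member, some of them overlapping. TGFBR1 was called in no pairwise comparison. In TGFB1 the NF-kB consensus lies 154 to 145 bases before the start, and in LTBP1 200 to 191 bases before it. The TGFB2 window holds a TATA box 29 to 24 bases before the start and CAGAC at 243 to 239 and at 53 to 49. The INHBA window holds TATAAA at 11 to 6 bases and no NF-kB match, and LTBP1 holds the CRE at 94 to 87 bases and GTCTG, the reverse complement of CAGAC, at 85 to 81 and 61 to 57. No member window holds the AP-1 letters. Of 35116 human promoter windows of that length, 9.96% hold the NF-kB consensus, 6.57% the AP-1 letters, 1.65% the CRE, 10.7% TATAAA and 38% CAGAC. These are matches of letters, and binding was not measured.

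After NFKB2 knockdown the ligand genes moved in opposite directions. TGFB2 and TGFB3 were lower and TGFB1 and INHBA higher, while LTBP1 and the receptors TGFBR2 and TGFBR3 were lower. In all, 7 of the 9 genes were called at an adjusted p below 0.05 in siNFKB2 against siNS, 2 of them higher and 5 lower. Over all genes tested 26.1% were called, 12.6% higher and 13.5% lower. The groups did not overlap for 6 of the 9 genes, against 37.4% of all genes, and the median log2 fold change of the 9 was -0.58, against -0.0037 over all genes. In siRELB against siNS none of the 9 was called, 3 had an unadjusted p below 0.05, and the background was 2.02%. The 7 calls in siNFKB2 fell to 2 without siNFKB2 replicate 2, to 3 without siNFKB2 replicate 3 and to 4 without siRELB replicate 2, without siNS replicate 3 or in a fit of only the 6 libraries compared.

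**Figure D1:**
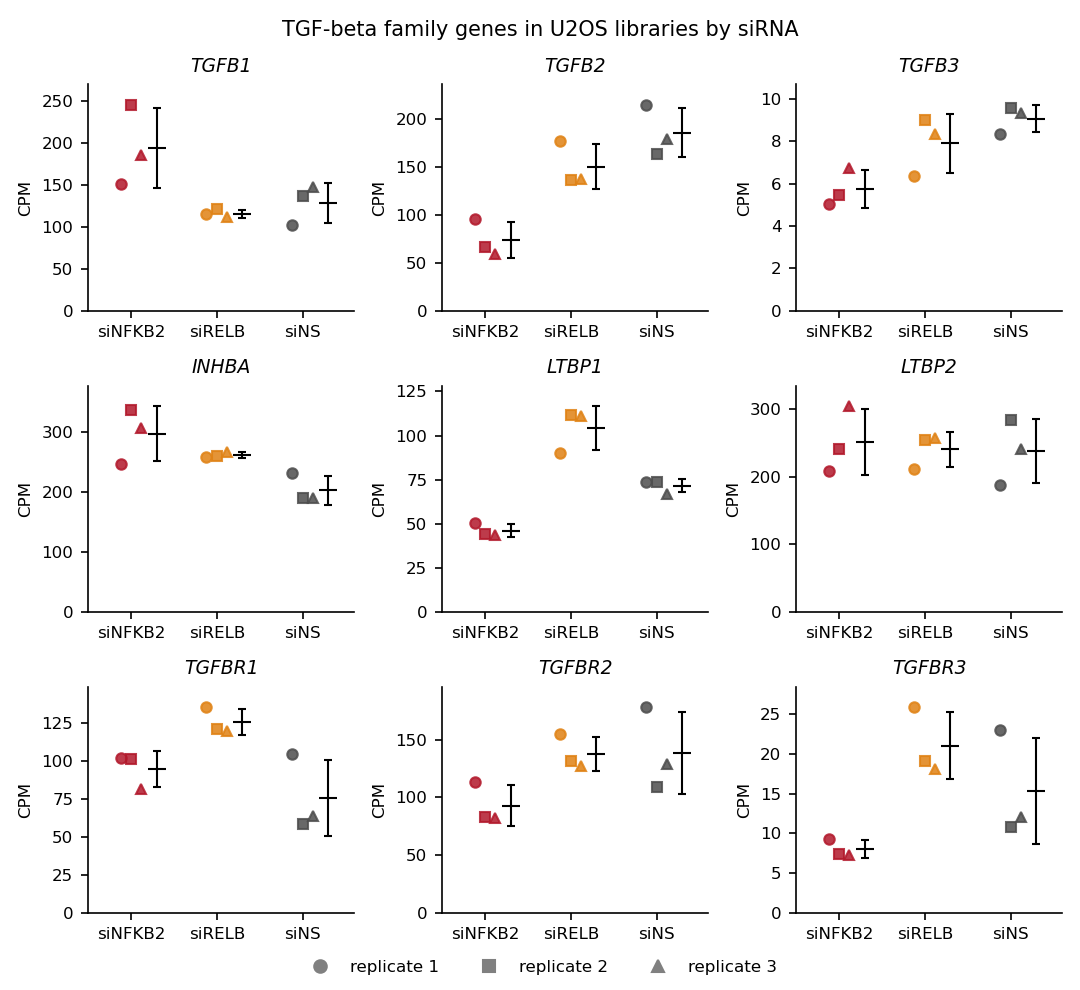
Level of each gene in every library, in CPM on scaled library sizes, with replicates 1, 2 and 3 as circles, squares and triangles and the group mean ± SD (n = 3) beside them. TGFB2 sits at 59.4 to 95.3 CPM in siNFKB2, below all 6 other libraries, and LTBP1 takes 3 separate ranges, lowest in siNFKB2 and highest in siRELB.

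TGFB2 encodes the ligand that depends most on the co-receptor betaglycan, which TGFBR3 encodes. The gene lies on chromosome 1, 218346235 to 218444619, plus strand (GRCh38, GENCODE 29, as for every gene position here). It had 95.3, 66.7 and 59.4 CPM in siNFKB2 replicates 1, 2 and 3, 177.5, 136 and 137.3 CPM in siRELB, and 214.8, 163.8 and 179.8 CPM in siNS. All 3 siNFKB2 libraries were below all others, and siRELB and siNS overlapped. The level was 2.52-fold lower in siNFKB2 than in siNS (log2 -1.33 ± 0.193, adjusted p = 0.00111) and 2.04-fold lower than in siRELB (log2 -1.03, adjusted p = 0.00377). Both calls held under each of the 18 alternatives run. Within siNFKB2, the library with the least NFKB2 left, replicate 1, kept the most TGFB2, 51.2% of the siNS mean, against 35.9% in replicate 2 and 31.9% in replicate 3. In siRELB and in siNS, too, replicate 1 had the most TGFB2 and the least NFKB2 of its group, so this order also follows the replicate number. In siRELB the log2 difference from siNS was -0.31 (adjusted p = 0.447). Of the exonic length of TGFB2, 27.1% is shared with TGFB2-OT1 on the same strand, which has 0 counts in every library, and the antisense entry TGFB2-AS1 had 2 to 12 counts. How reads in the shared bases were assigned is not known, so TGFB2 may be undercounted.

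TGFB1, the most widely expressed of these ligands, lies on chromosome 19, 41301587 to 41353911, minus strand. Its levels were 150.8, 245.7 and 185.6 CPM in siNFKB2, 115.3, 121 and 111.3 CPM in siRELB, and 102.2, 136.5 and 147.2 CPM in siNS. The siNFKB2 libraries were above all others, the lowest of them by a narrow margin over the highest siNS library. The log2 fold change was 0.59 ± 0.185 against siNS (adjusted p = 0.0385) and 0.74 against siRELB (adjusted p = 0.0149), and it was -0.15 in siRELB against siNS (adjusted p = 0.73). The call against siNS was lost in 8 alternatives, with adjusted p from 0.0538 to 0.134, 7 of which left out 1 library (siNFKB2 replicate 2 or 3, any siRELB replicate, or siNS replicate 1 or 2). The eighth used only the 6 libraries compared.

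TGFB3, a ligand of low level here, lies on chromosome 14, 75958099 to 75982991, minus strand, and had 94 or more counts in every library. It stood at 5.05, 5.45 and 6.75 CPM in siNFKB2, 6.35, 9 and 8.37 CPM in siRELB, and 8.36, 9.57 and 9.33 CPM in siNS. Every siNFKB2 library was below every siNS library, while siRELB overlapped both groups. It fell by 0.66 ± 0.186 on the log2 scale in siNFKB2 against siNS (adjusted p = 0.0248). This call was lost without siNFKB2 replicate 1 or 2 or siNS replicate 2 or 3 (adjusted p 0.0602, 0.1, 0.0707 and 0.0869). Against siRELB the difference was -0.46 (adjusted p = 0.0935), called at adjusted p = 0.0363 with the replicate number as a block. The value for siRELB against siNS was -0.20 (adjusted p = 0.626).

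INHBA encodes the subunit that dimerises into activin A, a ligand of the same superfamily with its own receptors. It lies on chromosome 7, 41667168 to 41705834, minus strand. It had 246.3, 336.7 and 306.1 CPM in siNFKB2, 257.5, 258.9 and 265.8 CPM in siRELB, and 230.3, 188.8 and 188.5 CPM in siNS. All 6 knockdown libraries were above all 3 siNS libraries. INHBA rose in siNFKB2 by 0.55 ± 0.134 on the log2 scale (adjusted p = 0.0135). The call was lost without siNFKB2 replicate 2 or 3 or siNS replicate 3 (adjusted p 0.0692, 0.0516 and 0.0684). In siRELB the difference from siNS was 0.36 ± 0.134 and did not pass (adjusted p = 0.206). Without siNS replicate 1 it was 0.47 and passed (adjusted p = 0.0462). Between siNFKB2 and siRELB the difference was 0.18 (adjusted p = 0.34), or 0.29 (adjusted p = 0.0268) without the 3 libraries numbered 1.

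LTBP1, which binds the latent ligand complex covalently and anchors it to matrix fibres, lies on chromosome 2, 32946972 to 33399509, plus strand. It had 50.1, 44.2 and 43.5 CPM in siNFKB2, 90, 111.8 and 111.1 CPM in siRELB, and 73.8, 73.8 and 67.1 CPM in siNS. The 3 ranges were apart, with siNFKB2 lowest, siNS between and siRELB highest. LTBP1 had the smallest adjusted p of the 9 genes for any difference among the groups (0.000504). It fell by 0.64 ± 0.124 on the log2 scale in siNFKB2 against siNS (adjusted p = 0.00451) and by 1.18 against siRELB (adjusted p = 0.000302), in each of the 18 alternatives. Between siRELB and siNS the difference was 0.54 ± 0.123 and narrowly missed the threshold (edgeR's adjusted p = 0.0545), while DESeq2 gave 0.00199. It passed without siNS replicate 1 (0.57, adjusted p = 0.0254), siNFKB2 replicate 1 (0.0471) or siRELB replicate 1 (0.0467). The replicate block also gave a pass (0.0136), though no pairing of siRELB with siNS was established.

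LTBP2, a microfibril protein of the same family that does not bind latent TGF-beta, was called in no comparison. It lies on chromosome 14, 74498170 to 74612378, minus strand. It had 209, 241.5 and 304.9 CPM in siNFKB2, 211.4, 254.5 and 257.7 CPM in siRELB, and 188.4, 283.9 and 241.8 CPM in siNS. All 3 ranges overlapped. The log2 difference from siNS was 0.08 ± 0.178 in siNFKB2 (adjusted p = 0.783) and 0.02 ± 0.178 in siRELB (adjusted p = 0.969), and each changed sign under some alternatives.

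TGFBR3, the co-receptor that presents ligand to TGFBR2, showed the widest difference between the knockdowns among the 9 genes. It lies on chromosome 1, 91680343 to 91906335, minus strand. It had 9.29, 7.37 and 7.28 CPM in siNFKB2, 25.9, 19.1 and 18.1 CPM in siRELB, and 23.0, 10.8 and 12.1 CPM in siNS. The siNFKB2 libraries were below all others, and siNS replicate 1 lay far above its own group, inside the siRELB range. TGFBR3 was 2.63-fold lower in siNFKB2 than in siRELB (log2 -1.40, adjusted p = 0.0056), a call held under each of the 18 alternatives. Against siNS it fell by 0.94 ± 0.283 on the log2 scale (adjusted p = 0.0331), and by 0.52 without siNS replicate 1, where it was no longer called (adjusted p = 0.0687). The call was also lost without siNFKB2 replicate 2 or 3 or siRELB replicate 2 (adjusted p 0.128, 0.11 and 0.05), with limma voom (0.0518) and with only the 6 libraries compared (0.0621). Between siRELB and siNS the difference was 0.46 (adjusted p = 0.436), and 0.88 without siNS replicate 1 (adjusted p = 0.0211).

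TGFBR2, the type II kinase that binds ligand, lies on chromosome 3, 30606502 to 30694142, plus strand. It had 113, 82.9 and 81.8 CPM in siNFKB2, 154.7, 131.5 and 126.7 CPM in siRELB, and 178, 109.3 and 128.6 CPM in siNS. The siNFKB2 range overlapped siNS, because siNFKB2 replicate 1 was above siNS replicate 2, but lay wholly below siRELB. It fell by 0.58 ± 0.194 on the log2 scale in siNFKB2 against siNS, just past the threshold (adjusted p = 0.0489), and 10 of 18 alternatives lost the call. They were the other scaling (0.054), limma voom (0.0528), the 6 libraries alone (0.0934) and the removal of siNFKB2 replicate 2 or 3, any siRELB replicate, or siNS replicate 1 or 3 (adjusted p 0.0579 to 0.188). Against siRELB the difference was -0.57 (adjusted p = 0.0516, or 0.00101 with the replicate block), and in siRELB against siNS it was -0.01 (adjusted p = 0.982).

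TGFBR1, the type I kinase that phosphorylates SMAD2 and SMAD3, lies on chromosome 9, 99104038 to 99154192, plus strand. It had 101.5, 101.3 and 81.1 CPM in siNFKB2, 135.1, 120.8 and 119.5 CPM in siRELB, and 104.1, 58.3 and 63.7 CPM in siNS. All siRELB libraries were above all others, and siNS replicate 1 stood with the siNFKB2 libraries rather than with its own group. The log2 difference of siRELB from siNS was 0.73 ± 0.203 with an adjusted p of 0.107 by edgeR and 0.0281 by DESeq2. Without siNS replicate 1 it was 1.04 (adjusted p = 0.00279), and with the replicate block 0.76 (adjusted p = 0.00724), though no pairing of siRELB with siNS was established. In siNFKB2 against siNS it was 0.33 ± 0.203 (adjusted p = 0.265), or 0.63 without siNS replicate 1 (adjusted p = 0.00548). The value was -0.40 in siNFKB2 against siRELB (adjusted p = 0.169, or 0.0374 with the block).

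**Figure D2:**
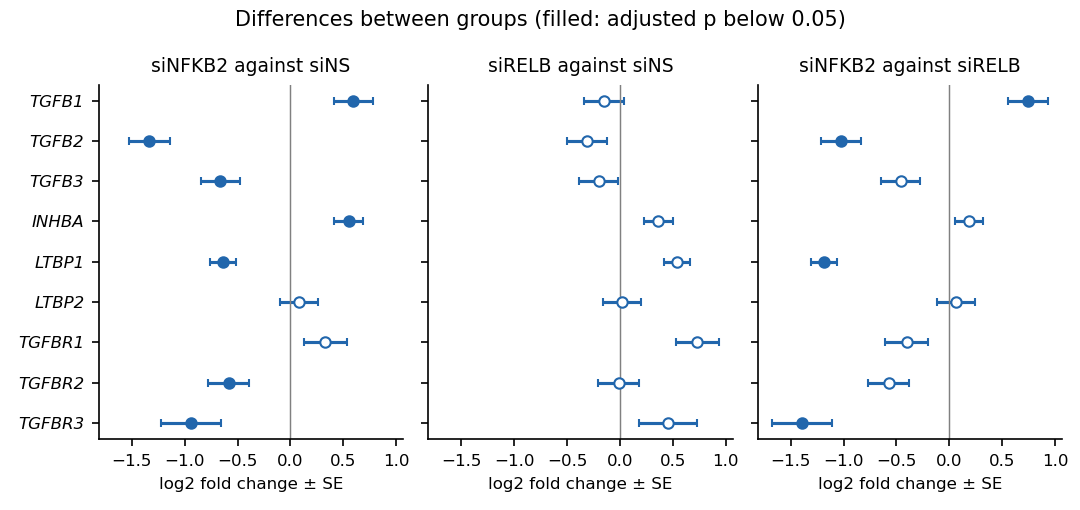
Log2 fold change ± SE of each gene in the 3 comparisons, from 1 edgeR fit of all 9 libraries, with filled points at an adjusted p below 0.05. TGFB1 and INHBA lie right of 0 and TGFB2, TGFB3, LTBP1, TGFBR2 and TGFBR3 left of it in siNFKB2 against siNS, and no point is filled in siRELB against siNS.

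The comparisons with siNS share their 3 control libraries, so their values are set side by side only. In siRELB against siNS the groups did not overlap for 3 of the 9 genes (TGFBR1, INHBA and LTBP1, all higher), against 22.5% of all genes, and the median log2 fold change of the 9 was 0.02, against -0.02 over all genes. Apart from edgeR's 0 calls, limma voom also called 0 and DESeq2 called 2 of the 9. Without siNS replicate 1, 4 were called, namely TGFBR1, TGFBR3, INHBA and LTBP1. With all 3 libraries numbered 1 left out, 5 were called, the same 4 and TGFB2 (log2 -0.33, adjusted p = 0.0338). DESeq2 and the fit without those 3 libraries also called more of all genes than the 299 in the fit of all 9 libraries. Their counts are given in the last section. With 1 library left out, 15 to 1819 of all genes were called.

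Set directly against siRELB, siNFKB2 differed in 4 of the 9 genes, with TGFB1 higher and TGFB2, TGFBR3 and LTBP1 lower. The background was 26.6% of all genes, 12.2% higher and 14.3% lower. The groups did not overlap for 6 of the 9, against 46% of all genes, and the median log2 fold change of the 9 was -0.46, against 0.02 over all genes. With the replicate number as a block 7 were called, TGFB3, TGFBR1 and TGFBR2 being added, all lower in siNFKB2. Any difference among the 3 groups was called for 7 of the 9, against 30% of all genes, the exceptions being TGFBR2 (adjusted p = 0.0653) and LTBP2 (adjusted p = 0.921). These 7 fell to 2 without siNFKB2 replicate 2 or 3, to 3 without siRELB replicate 2 or 3 and to 4 without siNS replicate 3.

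Ratios of counts between members of 1 library do not depend on its scaling, and they were chosen after the levels were seen. The ratio of TGFB2 to TGFB1 counts was 0.632, 0.272 and 0.32 in siNFKB2, 1.54, 1.12 and 1.23 in siRELB, and 2.10, 1.20 and 1.22 in siNS. In siNFKB2 TGFB1 counts exceeded TGFB2 counts in every library, and in the other 6 libraries the reverse held. The ratio of INHBA to TGFB2 was 2.58, 5.05 and 5.16 in siNFKB2, 1.45, 1.90 and 1.94 in siRELB, and 1.07, 1.15 and 1.05 in siNS, so the 3 groups took 3 separate ranges.

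Among the binding proteins, the ratio of LTBP2 to LTBP1 was 4.17, 5.46 and 7.002 in siNFKB2, 2.35, 2.28 and 2.32 in siRELB, and 2.55, 3.85 and 3.61 in siNS. Every siNFKB2 library was above, and every siRELB library below, the siNS range. For the kinases, the ratio of TGFBR2 to TGFBR1 was 1.11, 0.818 and 1.01 in siNFKB2, 1.14, 1.09 and 1.06 in siRELB, and 1.71, 1.88 and 2.02 in siNS. Here siNS replicate 1, whose levels of both kinases stood above its group, fell near replicates 2 and 3, and both knockdowns lay below all siNS libraries. With 3 libraries against 3, a two-sided exact permutation test cannot go below p = 0.1, which is the value reached by each of these ratios wherever the groups did not overlap.

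**Figure D3:**
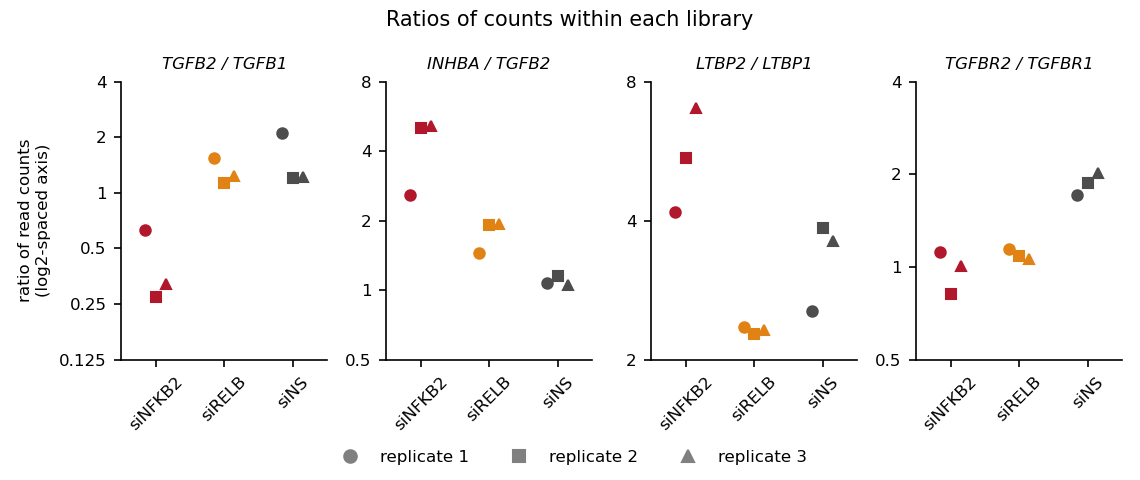
Ratio of the counts of a pair of genes within each library, on a log2-spaced axis, with replicates 1, 2 and 3 as circles, squares and triangles. The TGFB2 to TGFB1 ratio is below 1 in the 3 siNFKB2 libraries and above 1 elsewhere, and the TGFBR2 to TGFBR1 ratio is 0.818 to 1.14 in the 6 knockdown libraries and 1.71 to 2.02 in siNS.

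To order the genes against each other, levels were divided by exonic length and are given as CPM per kb. In siNFKB2 the order was TGFB1 at 70.1 ± 17.3, INHBA at 44.96 ± 6.97, LTBP2 at 29.4 ± 5.69, TGFBR2 at 19.7 ± 3.76, TGFB2 at 14.6 ± 3.76, TGFBR1 at 14.3 ± 1.77, LTBP1 at 6.88 ± 0.539, TGFB3 at 2.07 ± 0.32 and TGFBR3 at 1.13 ± 0.161 CPM per kb. TGFB2 did not differ beyond its spread from its neighbours TGFBR2 and TGFBR1, and the other neighbours did not overlap.

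In siRELB TGFB1 (41.8 ± 1.76 CPM per kb) and INHBA (39.6 ± 0.674) overlapped at the top. TGFB2 (29.7 ± 4.67), TGFBR2 (29.3 ± 3.18) and LTBP2 (28.2 ± 3.02) followed and overlapped, then came TGFBR1 (18.9 ± 1.31) and LTBP1 (15.6 ± 1.86), apart from each other, and TGFBR3 (2.99 ± 0.599) and TGFB3 (2.85 ± 0.498), which overlapped. In siNS TGFB1 (46.5 ± 8.49) and TGFB2 (36.8 ± 5.16) headed an order in which each of the first 5 overlapped its neighbour, with INHBA at 30.7 ± 3.65, TGFBR2 at 29.5 ± 7.53 and LTBP2 at 27.8 ± 5.59. TGFBR1 (11.4 ± 3.79) and LTBP1 (10.7 ± 0.582) overlapped below them, and TGFB3 (3.27 ± 0.23) and TGFBR3 (2.18 ± 0.955 CPM per kb) came last and overlapped. TGFB2 thus stood at the fifth place in siNFKB2, the third in siRELB and the second in siNS. Its length includes the bases shared with TGFB2-OT1, so its level per kb and its place may be too low.

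**Figure D4:**
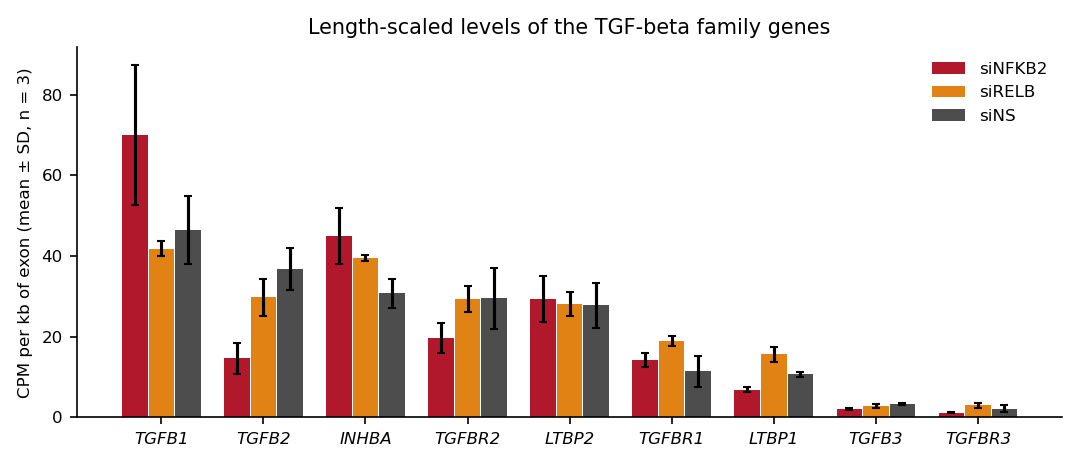
Mean level of each gene per kb of exon, in CPM per kb, with bars of SD (n = 3), by group. TGFB1 is the highest bar in every group, and TGFB2 stands at 14.6 in siNFKB2, 29.7 in siRELB and 36.8 in siNS.

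Across the 9 libraries the members fell into patterns, given as a description because the points share groups and replicate numbers. Pearson's r of log2 CPM was 0.923 for TGFBR2 and TGFBR3, 0.904 for TGFB2 and TGFBR2 and 0.842 for TGFBR3 and LTBP1. TGFB1 ran against them, with r of -0.898 to TGFBR2, -0.891 to TGFBR3, -0.836 to TGFB2 and -0.821 to LTBP1.

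For the 3 genes with the smallest p for any difference, the closest patterns among 10614 genes were found by the same measure over 9 libraries. LTBP1 was closest to SH3RF2 (r = 0.99), NCAM1 (0.989) and PDLIM1 (0.989). PDLIM1 had 5.23 ± 0.85 CPM in siNFKB2, 46.8 ± 11.1 in siRELB and 16.5 ± 2.96 in siNS, and all 3 of these genes were called lower in siNFKB2 and higher in siRELB, each against siNS. TGFB2 was closest to RRM1, DTL and SLC7A2 (each r = 0.993), and RRM1 had 208.7 ± 35.2 CPM in siNFKB2, 331.2 ± 15.4 in siRELB and 384.4 ± 35.3 in siNS. TGFBR3 was closest to AMOTL1 (0.996), TBL1XR1 (0.983) and FIGNL1 (0.982).

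Beyond the 9 genes, most other ligands of the superfamily were near 0 in U2OS cells. Of 28 listed, 10 were tested, and in siNFKB2 against siNS 1 was higher and 3 lower, with a median log2 fold change of -0.02. The background for this list and those that follow was 26.1% of all genes called in siNFKB2 against siNS. It was 2.02% in siRELB against siNS and 26.6% in siNFKB2 against siRELB. These shares are of the fit of all 9 libraries and do not apply to list counts from other fits. Calls over all genes also rose without the 3 libraries numbered 1 and with the replicate block, by counts given in the last section. With 1 library left out, 15 to 1819 of all genes were called in siRELB against siNS. BMP2, a bone-inducing ligand, had 20.4, 26.6 and 23.8 CPM in siNFKB2, 11.2, 11.5 and 10.9 CPM in siRELB, and 11.1, 11.1 and 12.1 CPM in siNS. BMP4, a ligand of the same branch, had 21.4, 18.2 and 17.4 CPM in siNFKB2, 32.0, 31.9 and 35.0 CPM in siRELB, and 32.1, 54.1 and 44.9 CPM in siNS. BMP2 was higher (log2 1.05, adjusted p = 0.000699) and BMP4 lower (log2 -1.20, adjusted p = 0.00144) in siNFKB2, with no overlap with the other groups. GDF11 (-0.90, adjusted p = 0.00635) and BMP5 (-0.61, adjusted p = 0.00642) were also lower. None of the 10 was called in siRELB against siNS by edgeR, DESeq2 or limma voom, with 3 at an unadjusted p below 0.05, and 2 were called without siNS replicate 1. Against siRELB 2 were higher in siNFKB2 and 2 lower, the stress-induced GDF15 being higher (1.45, adjusted p = 0.0124). Without the 3 libraries numbered 1 there were 5 calls in siNFKB2 against siNS, 6 against siRELB and 4 in siRELB against siNS. The 4 calls against siRELB fell to 3 without replicate 2 or 3 of any of the groups.

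Some of the other receptors were higher in siNFKB2. Of 11 listed and 9 tested, 4 were higher and 0 lower in siNFKB2 against siNS (median 0.44), with 12.6% of all genes higher. In siRELB against siNS 0 were called by edgeR, DESeq2 or limma voom (median 0.17, background 2.02%), 2 had an unadjusted p below 0.05, and 2 were called without siNS replicate 1. The BMP receptors BMPR1A (-0.045), BMPR1B (-0.011) and BMPR2 (0.038) were among the 5 not called. The activin type II receptors ACVR2B (0.77, adjusted p = 0.0034) and ACVR2A (0.44, adjusted p = 0.0381), the type I receptor ACVR1 (0.54, adjusted p = 0.0124) and the co-receptor endoglin were higher. Endoglin, encoded by ENG, had 74.2, 132.3 and 116.3 CPM in siNFKB2, 49.7, 51.2 and 48.0 CPM in siRELB, and 52.5, 73.8 and 64.4 CPM in siNS, with the lowest siNFKB2 library just above the highest siNS library (log2 0.76, adjusted p = 0.0194). Against siRELB, 3 were higher and 0 lower, namely ENG (1.12), ACVR2B (0.60) and ACVR2A (0.48), and 1 of these was left without siNFKB2 replicate 2. The count of 4 against siNS fell to 1 without siNFKB2 replicate 2 or siNS replicate 3 and to 2 without siNFKB2 replicate 3. Without the 3 libraries numbered 1 there were 6 calls against siNS, 4 against siRELB and 4 in siRELB against siNS, and with the replicate block 4 against siRELB.

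Genes of latency and activation split evenly. Of 20 listed and 17 tested, 5 were higher and 5 lower in siNFKB2 against siNS (median -0.32, background 26.1% of all genes). In siRELB against siNS 2 were lower (median -0.21, background 2.02%). The integrin subunit ITGB8, whose complex releases latent ligand, had 12.99, 8.88 and 8.07 CPM in siNFKB2, 16.9, 10.2 and 9.96 CPM in siRELB, and 39.1, 24.0 and 26.4 CPM in siNS. It was lower in siNFKB2 (-1.58, adjusted p = 0.00274) and in siRELB (-1.27, adjusted p = 0.0432), and every knockdown library was below every siNS library. THBS1, an activator of latent ligand, was lower in siNFKB2 (664.5 ± 68.9 CPM) and in siRELB (748.2 ± 72.2) than in siNS (1151 ± 72.8), with log2 fold changes of -0.79 (adjusted p = 0.00113) and -0.62 (adjusted p = 0.0273).

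Against siRELB, 5 of these genes were higher in siNFKB2 and 3 lower. FURIN, the protease that cleaves the ligands from their propeptides, had 192.5, 175.5 and 156.4 CPM in siNFKB2, 287.4, 330.3 and 301 CPM in siRELB, and 236.2, 330 and 333.5 CPM in siNS. It was lower in siNFKB2 against siNS (-0.78, adjusted p = 0.00412) and against siRELB (-0.81, adjusted p = 0.00336). ITGB3 was lower against both (-2.53 and -2.22), and the protease PLAU was higher, by 1.29 against siNS (adjusted p = 0.0186, with overlap) and 2.05 against siRELB (adjusted p = 0.00236). ITGB5, another integrin subunit, was higher by 0.35 against siNS (adjusted p = 0.0429) and 0.66 against siRELB (adjusted p = 0.00246). The 10 calls against siNS fell to 6 without siNFKB2 replicate 2 or siNS replicate 3 and stood at 15 without the libraries numbered 1. The 2 calls in siRELB were lost without siRELB replicate 2 or 3 or siNS replicate 2 or 3, fell to 1 without siNFKB2 replicate 2 or 3, and became 6 without siNS replicate 1 and 8 without the libraries numbered 1.

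Of 7 SMAD transducers, all tested, 2 were higher and 1 lower in siNFKB2 against siNS (median 0.27, background 26.1% of all genes). In siRELB against siNS 0 were called by edgeR, DESeq2 or limma voom, with 0 at an unadjusted p below 0.05 (median 0.14, background 2.02%). ZFYVE9, which brings SMADs to the receptor, was higher (47.1 ± 5.43 CPM in siNFKB2 and 27.6 ± 8.54 in siNS, log2 0.77, adjusted p = 0.0264), as was SMAD3 (0.42, adjusted p = 0.0379). SMAD9 was lower (-1.26, adjusted p = 0.0386), with groups that overlapped. SMAD2 differed by 0.29 (adjusted p = 0.175). All 3 calls were lost without siNFKB2 replicate 2 or 3 or siNS replicate 3, and 1 remained without siRELB replicate 2 or 3 or siNS replicate 2. Against siRELB, ZFYVE9 was higher (0.98) and SMAD9 lower (-1.68), and 1 of these 2 calls was left without siNFKB2 replicate 2 or 3. Without the libraries numbered 1 there were 4 calls against siNS and 3 against siRELB.

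Among 21 listed inhibitors of the pathway, 18 were tested, with 3 higher and 2 lower in siNFKB2 against siNS (median 0.12), a share near the 26.1% of all genes called. NEDD4L, a ubiquitin ligase that targets activated SMADs, had 606.2, 712.8 and 668.8 CPM in siNFKB2, 299.9, 289 and 284 CPM in siRELB, and 309.9, 246.4 and 273.6 CPM in siNS. It was higher in siNFKB2 by 1.26 against siNS (adjusted p = 0.000253) and by 1.19 against siRELB (adjusted p = 0.000212). The ligase SMURF1 was higher by 0.43 against siNS (adjusted p = 0.0182), and the inhibitory SMAD6 was lower (-2.16, adjusted p = 0.00242). FST encodes follistatin, the binding protein that neutralises activin, the product of INHBA. It had 39.1, 28.8 and 29.4 CPM in siNFKB2, 41.0, 36.2 and 37.8 CPM in siRELB, and 83.9, 115.1 and 91.8 CPM in siNS. Both knockdowns were below every siNS library, with log2 fold changes of -1.58 in siNFKB2 (adjusted p = 0.000283) and -1.34 in siRELB (adjusted p = 0.00584).

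The SMAD corepressor SKI was the other inhibitor called in siRELB against siNS, where 2 were lower and 0 higher (median 0.06, background 2.02%). It was lower in siRELB (74.7 ± 8.82 CPM) than in siNS (118.4 ± 19.9 CPM), with an adjusted p of 0.0484. Against siRELB, 5 inhibitors were higher in siNFKB2 and 3 lower, and these 8 fell to 5 without siNFKB2 replicate 2 or siRELB replicate 2 or 3. SMAD7, the feedback inhibitor of the TGF-beta branch, was chosen after its values were seen and differed from siNS by -0.19 in siNFKB2 (adjusted p = 0.355) and by -0.20 in siRELB (adjusted p = 0.512). In siNFKB2 against siNS the 5 calls fell to 3 without siNFKB2 replicate 2 or 3 or siNS replicate 2 or 3, and rose to 9 without siNS replicate 1. For siRELB, 1 of 2 calls was left without siNFKB2 replicate 2 or 3, siRELB replicate 1 or 3, or siNS replicate 2 or 3, 0 without siRELB replicate 2, and 4 were made without siNS replicate 1. Without the 3 libraries numbered 1 the calls were 11 in siNFKB2 against siNS, 13 against siRELB and 5 in siRELB against siNS, and with the replicate block 12 against siRELB.

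Targets that TGF-beta is known to induce in many cell types split between directions. Of 34 listed and 33 tested, 7 were higher and 9 lower in siNFKB2 against siNS, with a median of -0.12, against 12.6% higher and 13.5% lower over all genes. The 9 lower genes were COL1A1, COL1A2, COL3A1, COL5A1, FN1, TGFBI, ACTA2, TPM1 and IL11. COL1A2 had few counts, 9 to 10 in siNFKB2 and 18 to 21 in siNS. The IL11 ranges overlapped, at 12.4 to 15.3 CPM in siNFKB2 and 14.7 to 29.9 CPM in siNS. Matrix and contractile genes of the list that did not pass included COL4A1 (-0.031), COL4A2 (0.042), CALD1 (0.32), LOX (-0.28) and TAGLN (-0.38), whose adjusted p ran from 0.0754 to 0.917. VIM, also listed, was at -0.32 (adjusted p = 0.0577). Those higher included CCN2, CDKN1A, BHLHE40, VEGFA, TSC22D1 and SPHK1. COL5A1 had 37.7, 41.7 and 38.2 CPM in siNFKB2, 136.4, 184.4 and 178.3 CPM in siRELB, and 107.5, 209.9 and 203 CPM in siNS (log2 -2.15 against siNS, adjusted p = 0.000361). TPM1, an actin-binding tropomyosin, had 361.6, 261.2 and 269.3 CPM in siNFKB2, 683.1, 678.9 and 699 CPM in siRELB, and 626.6, 688.8 and 709.6 CPM in siNS (log2 -1.18 against siNS, adjusted p = 0.000374). ACTA2, smooth muscle actin, was lower too (-1.51, adjusted p = 0.000739). In each of these 3 genes all siNFKB2 libraries were below all others.

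CCN2, a matricellular protein gene often read as a sign of TGF-beta activity, is described here after its values were seen. CCN2 was higher, at 624.8 ± 35.8 CPM in siNFKB2 against 419.9 ± 19.0 in siRELB and 440.1 ± 4.60 in siNS (log2 0.51 against siNS, adjusted p = 0.00338). Against siNS, 1 target was higher and 2 were lower in siRELB (median 0.03, background 2.02%). TAGLN was higher (244 ± 26.7 CPM in siRELB and 154.1 ± 21.2 in siNS, adjusted p = 0.0469). FN1 (log2 -0.51, adjusted p = 0.0388) and HAS2 (-1.72, adjusted p = 0.0487, only 5 to 15 counts in siRELB and 20 to 40 in siNS) were lower. These 3 calls were all lost without siNFKB2 replicate 2, any siRELB replicate, or siNS replicate 2 or 3, 1 was left without siNFKB2 replicate 3, 5 targets were called without siNS replicate 1, and 9 without the 3 libraries numbered 1. FN1 was lower in siNFKB2 as well, against siNS (-1.11) and against siRELB (-0.60). In siNFKB2 against siRELB, 9 targets were higher and 10 lower, TAGLN among the lower (-1.04, adjusted p = 0.000856). These 19 became 24 with the replicate block and 26 without the 3 libraries numbered 1. The 16 calls in siNFKB2 against siNS became 22 without those 3 libraries. The 16 fell to 12 without siNS replicate 3 and to 13 without siNFKB2 replicate 2 or 3 or siNS replicate 2. A fit of only the 6 libraries compared also gave 13 against siNS. The 19 fell to 15 without siNFKB2 replicate 3 or siRELB replicate 2, and to 16 without siNFKB2 replicate 2 or siRELB replicate 3.

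Some of the BMP target genes were lower in siNFKB2. Of 9 listed and 7 tested, 4 were lower and 0 higher against siNS (median -1.14), with 13.5% of all genes lower. HEY1 (0.12, adjusted p = 0.701), MSX1 (0.28, adjusted p = 0.636) and MSX2 (-0.066, adjusted p = 0.813) did not pass. In siRELB against siNS 0 were called by the same 3 tools, with 0 at an unadjusted p below 0.05 (median -0.17, background 2.02%). ID1, an inhibitor of DNA binding induced directly by BMP signalling, had 70.2, 42.7 and 48.6 CPM in siNFKB2, 153.7, 146.6 and 130.5 CPM in siRELB, and 142, 189.2 and 221 CPM in siNS. All siNFKB2 libraries were below all others (log2 -1.77 against siNS, adjusted p = 0.000431). ID4 (-2.81, adjusted p = 0.00105), ATOH8 (-1.56, adjusted p = 0.0196) and ID2 (-1.14, adjusted p = 0.036) were lower, and ID3 was listed at 0 in every library. ATOH8 had few counts, 3 to 12 in siNFKB2, 26 to 46 in siRELB and 22 to 31 in siNS. Against siRELB, 3 were lower, with log2 differences of -1.42 for ID1, -2.37 for ID4 and -1.84 for ATOH8. The 4 calls against siNS became 2 without siNFKB2 replicate 3. They became 3 without siNFKB2 replicate 2, siRELB replicate 2 or 3, or any siNS replicate. A minimum mean of 5 CPM and a fit of only the 6 libraries compared also left 3. ID2 kept its call in 10 of the 18 alternatives. Without the 3 libraries numbered 1 the list had 5 calls in siNFKB2 against siNS, 5 against siRELB and 1 in siRELB against siNS, and with the replicate block 4 against siRELB.

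**Figure D5:**
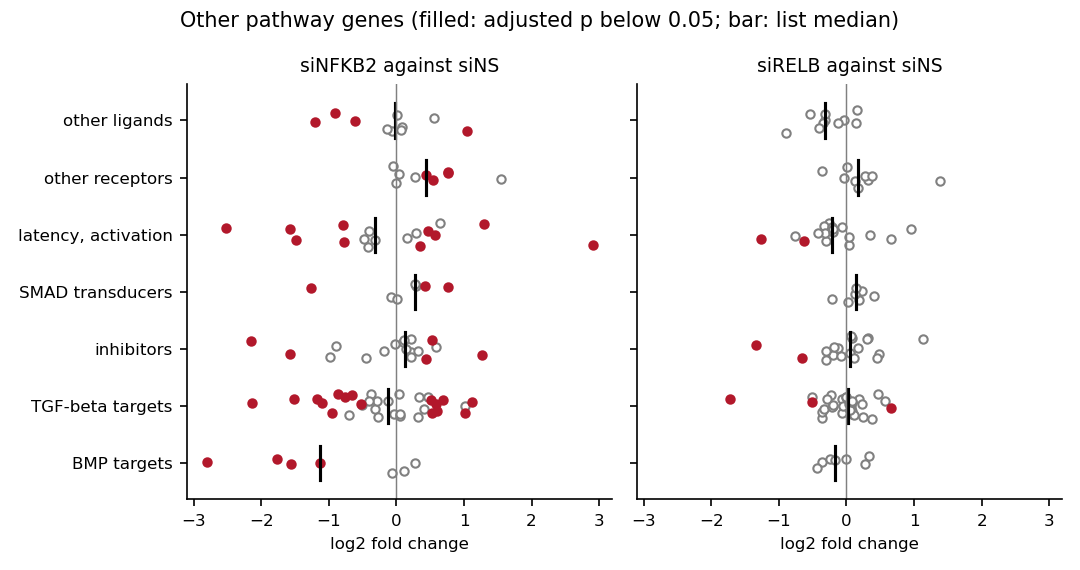
Log2 fold change of each tested gene of 7 pathway lists in siNFKB2 against siNS and in siRELB against siNS, with filled points at an adjusted p below 0.05 and a bar at each list's median. In siNFKB2 against siNS the 4 filled receptors lie right of 0 and the 4 filled BMP targets left of it, while the TGF-beta targets spread to both sides.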

How the data were processed

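Poly(A) RNA of U2OS cells was sequenced in 9 libraries, grouped and numbered as labelled. The authors deposited whole-number read counts per gene and library, without normalization. Trimmomatic 0.38, STAR 2.7.1a, Subread 1.6.4 and GRCh38.p13 are named per the submitters' processing notes; the sources used here do not give their settings, the annotation or the strand setting of counting, so reads of overlapping antisense genes could not be told apart. TGFB3, LTBP1 and LTBP2 share 5.87%, 3.73% and 2.42% of their exonic length with a gene on the other strand, and INHBA-AS1 had 2 to 14 counts.

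The counts were filtered with filterByExpr and scaled by TMM in edgeR 4.0.16 (R 4.3.3). Each comparison was read from 1 fit of 3 group means to all 9 libraries by the quasi-likelihood F test. P-values were adjusted by Benjamini-Hochberg over 14815 genes, with calls at an adjusted p below 0.05. Fold changes are log2, and SE is their size over the square root of F. The steps were tested on simulated counts. The members, lists and markers were chosen with earlier results of these data known. Named genes are the members, NFKB2, RELB, the 3 genes closest in pattern to each of 3 members among genes averaging 5 CPM or more, and from each list up to 4 genes by adjusted p in siNFKB2 against siNS and up to 3 called genes in each other comparison; others are said to be chosen after their values were seen, except the markers and the targets listed by direction. A few genes within this rule are left unreported. Exonic lengths come from GENCODE 29.

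Within groups, no pair of libraries agreed within sampling noise (chi-square per degree of freedom 3.13 to 75.8), so each counted as a sample. Deviations from group means correlated between same-numbered siNFKB2 and siRELB libraries at 0.535, 0.171 and 0.45, and between differently numbered ones at -0.524 to 0.258. The numbers were taken to pair these groups, though the value for replicate 2 lay within the range of differently numbered libraries. Blocked values rest on this uncertain pairing and stand beside the counts and calls they change between these groups. The alternatives were DESeq2's size factors, DESeq2 1.42.0, limma 3.58.1 voom, no filter, a minimum mean of 5 CPM, only the 6 libraries compared, a replicate block, repeat entries summed, and libraries left out 1 at a time or the 3 numbered 1 together.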

Additional observations from a re-analysis of the deposited data

How the results depend on the processing

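Of 486 values of the 9 genes under 18 alternatives, 403 kept their direction and their side of the threshold, 33 lost a call, 36 gained one and 14 changed sign. Of 1094 values of named list genes, NFKB2 and RELB, 979 kept both, 110 lost a call, 5 gained one and 0 changed sign. The list genes were picked for a small adjusted p in these same comparisons, so few of them could gain a call. The sign changes were all in values that were not called. With 1 library left out, LTBP2 ranged from -0.068 (without siNFKB2 replicate 3; -0.064 without siNS replicate 1) to 0.23 in siNFKB2 against siNS, from -0.12 (without siNS replicate 1; -0.020 and -0.031 without siRELB replicates 2 and 3) to 0.15 in siRELB against siNS, and from -0.093 (without siNFKB2 replicate 3; -0.028 without siRELB replicate 1) to 0.18 in siNFKB2 against siRELB. TGFBR2 ranged from -0.17 to 0.21 in siRELB against siNS, at 0.021, 0.045 and 0.21 without siRELB replicate 2, siRELB replicate 3 and siNS replicate 1. Without the 3 libraries numbered 1, siRELB against siNS gave -0.037 for LTBP2 and 0.12 for TGFBR2, and TGFBR2 was at 0.012 by limma voom and with the replicate block.

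Leaving out 1 library at a time gave 2 to 6 of the 9 genes called in siNFKB2 against siNS (2220 to 4895 of all genes), 0 to 4 in siRELB against siNS (15 to 1819), 3 to 6 in siNFKB2 against siRELB (2188 to 4917) and 2 to 8 for any difference (2385 to 6472). With only the 6 libraries compared, 4 were called in siNFKB2 against siNS, and 129 of all genes in siRELB against siNS, against 299 in the fit of 9. In siRELB against siNS, DESeq2 called 2 of the 9 and 879 of all genes, and no filter and a minimum mean of 5 CPM called 1 each. Without the 3 libraries numbered 1 the members called were 5 in siRELB against siNS and 8 in siNFKB2 against siRELB, and all genes called were 6711, 3390, 6600 and 8310 in the 4 comparisons in the order above, against 3869, 299, 3934 and 4443 with them. The cause was not tested.

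Same-numbered libraries correlated at 0.585, 0.0545 and 0.0914 between siNFKB2 and siNS and at 0.594, 0.376 and 0.0439 between siRELB and siNS. Differently numbered libraries reached 0.569 between siNFKB2 and siNS and 0.426 between siRELB and siNS. A pairing of either group with siNS was therefore neither established nor excluded. With the replicate block, 5944 genes were called in siNFKB2 against siNS, 1570 in siRELB against siNS with 2 of the 9, 6054 in siNFKB2 against siRELB with 7 of the 9, and 7247 for any difference. Lists with more calls under the block against siNS were, in siNFKB2, other ligands (5), other receptors (6), latency (12), SMAD transducers (4), inhibitors (8) and TGF-beta targets (24), and, in siRELB, other ligands (1), latency (5), inhibitors (3) and TGF-beta targets (4).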
